A study of Mus musculus with 4 samples.

Results

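The miR-183, miR-96 and miR-182 cluster is a group of 3 microRNA genes that lie close together and are transcribed as a single precursor. Its 6 members, the 5p and 3p arms of the 3 hairpins, were taken by name from the 1915 mature mouse miRNAs listed in the deposited table. The rule that picks them uses names and no measured value. All 6 had at least 1 count. Small RNA had been sequenced from MIN6 cells (2 libraries) and from MIN6-derived exosomes (2 libraries), the small vesicles that these cells release into their medium. MIN6 is a mouse insulinoma line with features of pancreatic β-cells, so both groups come from the same tumor line rather than from islets. Cells of both groups were grown in medium with exosome-depleted serum, penicillin-streptomycin and β-mercaptoethanol, and no other treatment is named. The exosomes were collected from conditioned medium by centrifugation.

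The primary transcript of the cluster is cut into 3 hairpins, and each hairpin is cut again to leave a short duplex. The strand that stays in the Argonaute protein guides it to mRNAs that pair with the seed, bases 2 to 8 of the miRNA, and the other strand is usually degraded. The cluster is best known from sensory organs (hair cells of the ear, photoreceptors, sensory neurons), where mutation of the miR-96 seed causes hearing loss. It is also known in epithelial and endocrine cells, and Foxo1 mRNA is a described target of its members. For the β-cell line, the data bear on how much of each arm the cells hold and whether the exosomes carry the arms in the same amounts and proportions.

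The 6 mature sequences are shown because the members are related at the seed and differ in which arm was recovered. The RefSeq sequences (GRCm38.p6) were identical to those deposited with the counts per hairpin. Each is written 5′ to 3′ with the seed in capitals:
mmu-miR-183-5p: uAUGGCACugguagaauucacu
mmu-miR-96-5p: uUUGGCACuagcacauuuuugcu
mmu-miR-182-5p: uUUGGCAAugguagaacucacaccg
mmu-miR-183-3p: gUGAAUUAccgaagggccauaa
mmu-miR-96-3p: cAAUCAUGuguagugccaauau
mmu-miR-182-3p: gUGGUUCUagacuugccaacu

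The seeds of the 3 5p arms shared the letters UGGCA and differed only in their first and last bases. Counted from 1 at the 5′ end, the seeds of miR-183-5p and miR-96-5p differed by A2U alone, those of miR-96-5p and miR-182-5p by C8A alone, and those of miR-183-5p and miR-182-5p by both A2U and C8A. Over the whole length, miR-183-5p and miR-182-5p were the closest pair, with 18 of 22 aligned positions the same, against 13 of 22 for miR-183-5p and miR-96-5p and 12 of 23 for miR-96-5p and miR-182-5p. The shorter run GGCA stood at any place in the seed of 55 of the 1851 listed miRNAs that had a sequence (2.97%). The longer shared run was not counted. No miRNA outside the cluster among these carried the full seed of a 5p member, and the 3p seeds were shared only by miR-96-3p and miR-3475-5p. No member's sequence was found in a transcript of another gene.

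The 3 hairpins lie on the minus strand of mouse chromosome 6 (GRCm38). Following the direction of transcription, mir-183 spans chr6:30169668-30169737, mir-96 spans chr6:30169446-30169551 and mir-182 spans chr6:30165918-30165992. The first 2 hairpins are separated by 116 bases and the last 2 by 3453 bases, and the whole cluster covers 3820 bases. All 3 lie within the RefSeq long noncoding gene Mirc35hg (chr6:30158640-30174125), the host gene of the cluster, and whether they are exonic or intronic there was not read from the table used here. In GENCODE vM21, no exon of another gene overlapped a hairpin. The nearest protein-coding genes were Nrf1 (chr6:30047988-30153458, plus strand) and Ube2h (chr6:30211289-30304539, minus strand), and the long noncoding gene Rncr4 (chr6:30172893-30175126, plus strand) starts upstream of mir-183. The hairpins are written here with both mature arms in capitals, since the results turn on which arm was counted:
mir-183: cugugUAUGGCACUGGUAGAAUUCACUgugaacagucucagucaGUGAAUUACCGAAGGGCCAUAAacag
mir-96: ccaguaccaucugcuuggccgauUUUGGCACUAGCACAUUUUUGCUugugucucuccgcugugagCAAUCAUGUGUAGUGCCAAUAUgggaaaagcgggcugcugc
mir-182: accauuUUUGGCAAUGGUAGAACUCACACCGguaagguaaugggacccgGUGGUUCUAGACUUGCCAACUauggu

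The libraries differed widely in depth, which decides what can be said of the weaker arms. Mature miRNA counts totalled 2930217 and 2564068 in cells, against 47447 and 31409 in exosomes. A count of 3, taken as the floor, corresponded to 1.02 and 1.17 RPM (the deposited reads-per-million scale) in cells but to 63.2 and 95.5 RPM in exosomes. The 2 libraries of a group differed by more than sampling noise (chi-square over its degrees of freedom was 10.6 in cells and 22.6 in exosomes), so they were counted as separate samples. Nothing in the labels says that they came from separate cultures, so p-values measure only the spread between these libraries, which may be technical. The quality of cell and exosome libraries was checked on different instruments, and such a difference in handling cannot be told apart from the group. Since only the makeup of each library was measured, fewer vesicles carrying a miRNA and fewer copies per vesicle cannot be told apart either.

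The β-cell markers miR-375-3p and miR-7a-5p were high in every library. They summed to 35943 and 36039 RPM in cells and to 18990 and 8087 RPM in exosomes. Markers of other cell types (a list of 20 miRNAs of blood, liver, muscle, endothelium and mesenchyme) summed to 86.7 and 97.1 RPM in cells and to 21519 and 15473 RPM in exosomes. Of the 20, 10 and 12 had a count in cells and 17 and 15 had a count in exosomes. By type, the exosome sums were 8683 and 2483 RPM for blood, 9274 and 9201 RPM for endothelium, 1728 and 2038 RPM for liver, 1770 and 1751 RPM for mesenchyme and 63.2 and 0 RPM for muscle, while no type exceeded 63.6 RPM in a cell library. Among the defining markers, the red cell miRNA miR-451a was at 0 in both cell libraries, and the muscle miRNAs miR-133a-3p, miR-133b-3p and miR-206-3p were at 0 in all 4 libraries. The part of these other miRNAs in the results on the cluster was not tested.

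The cluster was an appreciable part of the miRNA of MIN6 cells and a smaller part of that of the exosomes. Its 6 arms together held 20622 counts (0.704%, 95% Wilson interval 0.694 to 0.713%) in cell replicate 1 and 18755 counts (0.731%, 0.721 to 0.742%) in cell replicate 2. In the exosomes they held 114 counts (0.240%, 0.200 to 0.289%) in replicate 1 and 30 counts (0.0955%, 0.0669 to 0.136%) in replicate 2. The intervals of the exosome libraries lay below those of the cells and did not meet each other, although intervals and floors cover counting error only.

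miR-183-5p made up nearly all of the cluster in cells. In cells, mmu-miR-183-5p had 19749 and 18044 counts, and in exosomes it had 109 and 18 counts. As a level, this was 6740 and 7037 RPM in cells against 2297 and 573 RPM in exosomes, so that the 2 cell libraries lay close together, the 2 exosome libraries lay far apart, and the groups did not overlap. In RPM, the exosomes lay below the cells without overlap for 33.8% of all tested miRNAs. By rank among all miRNAs, miR-183-5p was at 21 and 23 in cells and at 55 and 93 in exosomes. At the cell level, the exosome libraries would have held about 327 and 216 of its counts by RPM and about 921 and 466 by TMM.

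After TMM normalization, miR-183-5p stood at 10860 ± 901 CPM (counts scaled like RPM, SD, n = 2) in cells and at 852 ± 612 CPM (SD, n = 2) in exosomes. The exosome level was lower by edgeR's quasi-likelihood test (log2 fold change of -3.65, SE 0.71, adjusted p = 0.0202). It was the only member that passed, among 3 tested, and no member was higher. Across all 438 tested miRNAs, 29.5% were lower and 23.7% were higher by the same rule, so the count of members called is near the background. The median miRNA had a log2 fold change of -0.75, and the value of miR-183-5p relative to it was -2.90. This relative value was -2.85 with library size alone as the scale, where the median moved to 0.61 and the fold change of miR-183-5p to -2.24 (adjusted p = 0.0814 by the same test). Leaving out either cell library also took the adjusted p of miR-183-5p past the threshold, to 0.0764 without replicate 1 and 0.0964 without replicate 2, with fold changes of -3.74 and -3.57.

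**Figure D1:**
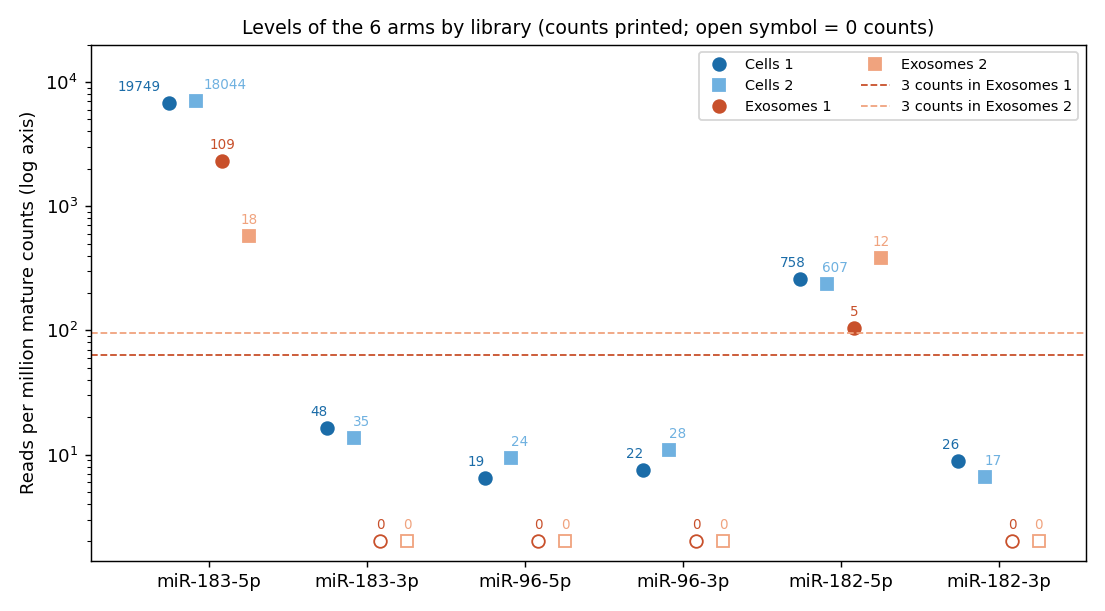
Level of each of the 6 arms in each library, in RPM on a log axis, with the count printed above each point and 0 counts drawn as open symbols at the bottom. Dashed lines mark 3 counts in each exosome library. miR-183-5p lies at 6740 and 7037 RPM in cells and at 2297 and 573 RPM in exosomes, miR-182-5p has overlapping groups, and the other 4 arms lie below the dashed lines in cells and at 0 in exosomes.

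miR-182-5p was the second arm of the cluster, and its exosome level was not settled by these libraries. In cells, mmu-miR-182-5p had 758 and 607 counts, and in exosomes it had 5 and 12 counts. The RPM levels were 259 and 237 in cells against 105 and 382 in exosomes, so the cell values lay between those of the exosomes. At the cell level, the exosome libraries would have held 11.8 and 7.78 counts by RPM and 33.0 and 16.7 counts by TMM. Its mean level was 248 ± 15.5 RPM (SD, n = 2) in cells and 244 ± 196 RPM (SD, n = 2) in exosomes. In TMM-normalized CPM it stood at 392 and 387 in cells against 59.0 and 279 in exosomes, and on this scale the groups did not overlap, as for 51.8% of all tested miRNAs with exosomes lower. The difference did not pass the test (log2 fold change of -1.32, SE 0.77, adjusted p = 0.205 by edgeR's quasi-likelihood test).

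The value for miR-182-5p depended on which exosome library was kept. Without exosome replicate 2 the log2 fold change of miR-182-5p was -2.68 with an adjusted p of 0.00250, and without exosome replicate 1 it was -0.53 with an adjusted p of 0.241 by edgeR. In these fits the lone exosome library is assumed to vary like the 2 cell libraries, which lay close together, so their p-values do not carry the spread between exosome libraries. Relative to the median of all miRNAs, the first value was -1.96 and the second 0.88. With no filter on low counts it also passed, at a log2 fold change of -2.65 (adjusted p = 0.0291).

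The remaining 4 arms had between 17 and 48 counts in each cell library and none in the exosomes. mmu-miR-183-3p had 48 and 35 counts in cells (16.4 and 13.7 RPM). mmu-miR-96-5p had 19 and 24 counts (6.48 and 9.36 RPM), and mmu-miR-96-3p had 22 and 28 counts (7.51 and 10.9 RPM). mmu-miR-182-3p had 26 and 17 counts (8.87 and 6.63 RPM). All 4 lay below the floor of the exosome libraries, and a count of 0 allows a share of up to 0.00632% in exosome replicate 1 and 0.00955% in replicate 2, above the share of each in cells. At the cell level, scaled by TMM, miR-183-3p would have had only 2.00 and 1.01 counts in the exosome libraries and miR-96-5p 1.07 and 0.540. At this depth, a lower level of these arms in exosomes could therefore not be detected, and no fold is given for them.

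Of these arms, miR-183-3p passed the filter on low counts, through the cell libraries alone, and its adjusted p was 0.0548 by edgeR's quasi-likelihood test. miR-96-5p, miR-96-3p and miR-182-3p did not pass the filter and were not tested. By the study's own rule, which is a 2-fold change or more with p below 0.05, not adjusted, in edgeR's exactTest, both miR-183-5p (p = 3.70e-06) and miR-183-3p (p = 0.0200) were called lower. The call on miR-183-3p rests on 0 exosome counts, where only 2.00 and 1.01 would have been held at the cell level. It is therefore not read as a lower level. By that rule 37.9% of the 438 tested miRNAs were lower and 27.4% were higher.

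The arms of each hairpin were recovered in different proportions. From mir-183, the 5p arm took 99.8% of the counts on both arms in each cell library and all of the 109 and 18 counts in exosomes. From mir-182, the 5p arm took 96.7% and 97.3% in cells, and all of the 5 and 12 counts in exosomes. For these hairpins the 5p arm was the main strand. From mir-96, in contrast, the arms were counted about equally, with 19 of 41 counts on the 5p arm in cell replicate 1 (46.3%, Wilson interval 32.1 to 61.3%) and 24 of 52 in cell replicate 2 (46.2%, 33.3 to 59.5%). These values come from few counts, and in exosomes neither arm of mir-96 was counted.

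The counts per hairpin hold reads that match neither annotated arm. For mir-183 these were 2 of 19799 and 4 of 18083 reads in cells, and for mir-182 they were 4 of 788 and 6 of 630. For mir-96 they were 3 of 44 reads (6.82%) and 2 of 54 reads (3.70%). In the exosomes, the hairpin counts held the 109 and 18 reads of mir-183 and the 5 and 12 reads of mir-182, all on an arm. A single read of mir-96, on neither arm, was recorded in exosome replicate 1, and the hairpin had no entry for replicate 2.

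The proportions within the cluster need no scaling between libraries. miR-183-5p held 95.8% of the cluster's counts in cell replicate 1, 96.2% in cell replicate 2, 95.6% (Wilson interval 90.1 to 98.1%) in exosome replicate 1 and 60.0% (42.3 to 75.4%) in exosome replicate 2. miR-182-5p held 3.68% and 3.24% in cells, 4.39% (1.89 to 9.86%) in exosome replicate 1 and 40.0% (24.6 to 57.7%) in exosome replicate 2. Exosome replicate 1 thus had the makeup of the cells within its interval, and exosome replicate 2, with 30 counts in all, did not.

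The ratio of miR-183-5p to miR-182-5p showed the same split. It was 26.1 (95% interval 24.2 to 28.0) and 29.7 (27.4 to 32.2) in cells, 21.8 (9.14 to 52.0) in exosome replicate 1 and 1.50 (0.734 to 3.07) in exosome replicate 2. On the log2 scale the mean ratio was 4.80 in cells and 2.52 in exosomes, a difference of -2.28. The groups did not overlap, but the two-sided exact permutation p of 0.333 is the smallest that 2 against 2 libraries can give. The share of miR-183-5p differed by -18.2 percentage points between exosomes and cells on average. Without exosome replicate 2 this difference was -0.374 points, and without exosome replicate 1 it was -36.0 points.

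**Figure D2:**
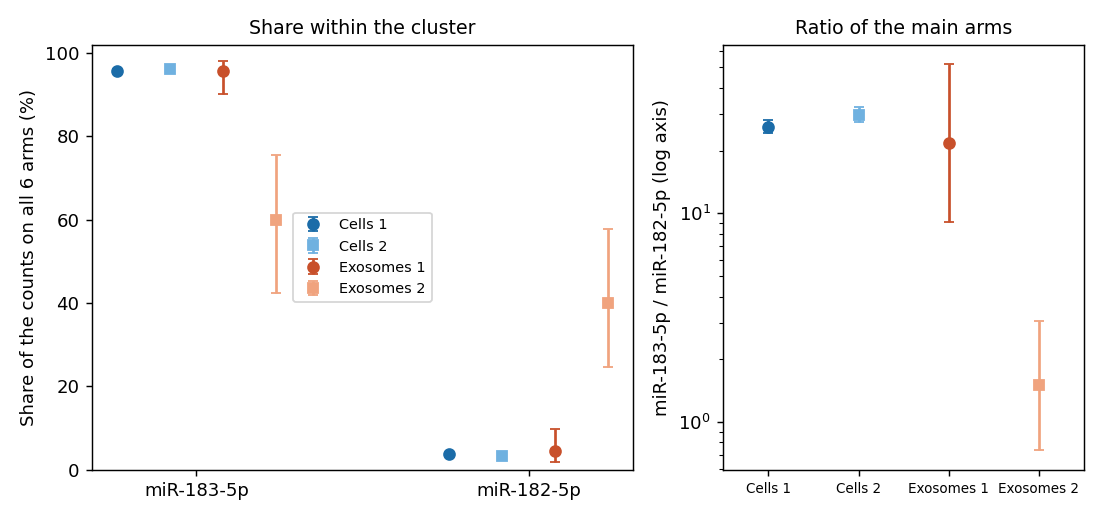
Left, share of the cluster's counts on miR-183-5p and miR-182-5p in each library (percent, with 95% Wilson intervals). Right, ratio of miR-183-5p to miR-182-5p counts in each library on a log axis, with 95% intervals for counting error. Exosome replicate 1 lies at the cell values in both panels (ratio 21.8), and exosome replicate 2 lies apart from the other 3 libraries (ratio 1.50).

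The same fit was read for other miRNAs of epithelial and endocrine cells, to place the cluster among them. Of the miR-200 family, whose members keep epithelial cells in their state and are made from 2 clusters, 9 of 10 listed arms were tested. Of the 9, 4 were at or under the floor in both exosome libraries. Across all 438 tested miRNAs, 29.5% were lower and 23.7% were higher. In the family, 7 were lower, 0 were higher and 2 did not pass. The 7 include miR-200a-3p (2 and 0 exosome counts), miR-200a-5p (0 and 0) and miR-141-5p (1 and 0), all at or under the floor. The lower calls numbered 3 with library size alone and 0 without either cell library, where 6 (without replicate 1) and 4 (without replicate 2) had an unadjusted p under 0.05 in edgeR. miR-200c-3p, close to miR-183-5p in cell abundance, had 26391 and 24894 counts in cells and 107 and 12 in exosomes (log2 fold change of -4.23, adjusted p = 0.0228 by edgeR). miR-200b-3p had 3738 and 3597 counts in cells and 10 and 1 in exosomes, and its log2 fold change was -4.74 at an adjusted p of 0.0119 by edgeR. In both, as for miR-183-5p, exosome replicate 2 held far fewer counts than replicate 1. The median log2 fold change was -4.23 for the family against -0.75 over all tested miRNAs, and with miRNAs at or under the floor set to their bound (0 where it allows no change) it was -2.89 against 0.

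The islet list, with miR-375 and the miR-7 family of endocrine cells, had 6 of 7 arms lower, 0 higher and a median log2 fold change of -2.87. For all 438 tested miRNAs, 29.5% were lower, 23.7% were higher and the median log2 fold change was -0.75. None of the 7 was called lower in edgeR with library size alone, where 4 were lower at an unadjusted p under 0.05, or without either cell library, where 5 were so in each case. miR-375-3p, which restrains insulin secretion, had a log2 fold change of -1.43 (adjusted p = 0.0475 by edgeR). miR-7a-5p had 78620 and 67072 counts in cells and 394 and 32 in exosomes, and its log2 fold change was -3.94 (adjusted p = 0.0397 by edgeR). miR-7b-3p did not pass (log2 fold change of -0.45, adjusted p = 0.439 by edgeR). These comparisons use the same 4 libraries.

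Against these neighbours, the main arms kept different proportions. For each 100 counts of miR-375-3p and miR-7a-5p together, miR-183-5p had 18.8 and 19.5 counts in cells and 12.1 and 7.09 in exosomes. For each 100 counts of the miR-200 family it had 53.7 and 51.8 in cells, 61.6 in exosome replicate 1, and in exosome replicate 2 it had as many counts as the family, 18 each. The value of exosome replicate 1 rests on 109 counts against 177. No counting interval was computed for these ratios, so a rise beyond counting error was not shown. In both exosome libraries, miR-183-5p was thus lower relative to the sum of miR-375-3p and miR-7a-5p and higher relative to the miR-200 family. Each difference had an exact permutation p of 0.333, the smallest possible. The 2 miRNAs of the sum differed, with log2 fold changes of -1.43 for miR-375-3p and -3.94 for miR-7a-5p, against -3.65 for miR-183-5p. The lower value thus held for the sum and not for miR-7a-5p alone. miR-182-5p had 0.720 and 0.657 counts for each 100 of the same sum in cells, and 0.555 and 4.72 in exosomes, where the groups overlapped. For each 100 counts of the miR-200 family it had 2.06 and 1.74 in cells and 2.82 and 66.7 in exosomes, which did not overlap (exact permutation p of 0.333, the smallest possible), and the last value rests on 12 counts against 18.

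**Figure D3:**
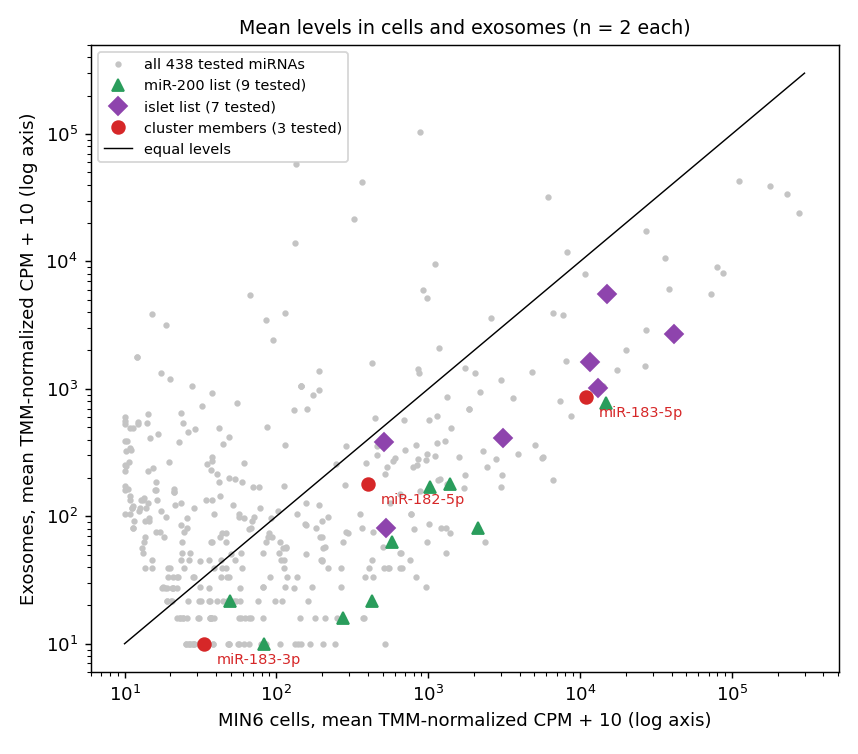
Each point is 1 of the 438 tested miRNAs, with its mean TMM-normalized CPM in cells on the horizontal axis and in exosomes on the vertical axis (log axes, 10 added to each mean). The tested cluster members, the miR-200 family and the islet list are marked. miR-183-5p (10860 against 852 CPM) lies among the miR-200 and islet miRNAs that are abundant in cells, below the line of equal level.

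The miRNAs whose levels were most like that of miR-183-5p over the 4 libraries were found by the Euclidean distance of log2 CPM among 435 tested miRNAs outside the cluster. miR-483-3p, from the hairpin in the Igf2 gene, was nearest at a distance of 0.21, with 20587 and 18787 counts in cells and 100 and 20 in exosomes. miR-7b-5p followed at 0.51, with 24894 and 21101 counts in cells and 134 and 19 in exosomes. miR-744-5p came next at 0.80, with 15693 and 14491 counts in cells and 72 and 15 in exosomes. All 3 were lower in exosomes, with log2 fold changes of -3.76, -3.68 and -3.83 and adjusted p of 0.0149, 0.0231 and 0.0132 by edgeR. The likeness is over 4 libraries from 2 groups and is a description.

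**Figure D4:**
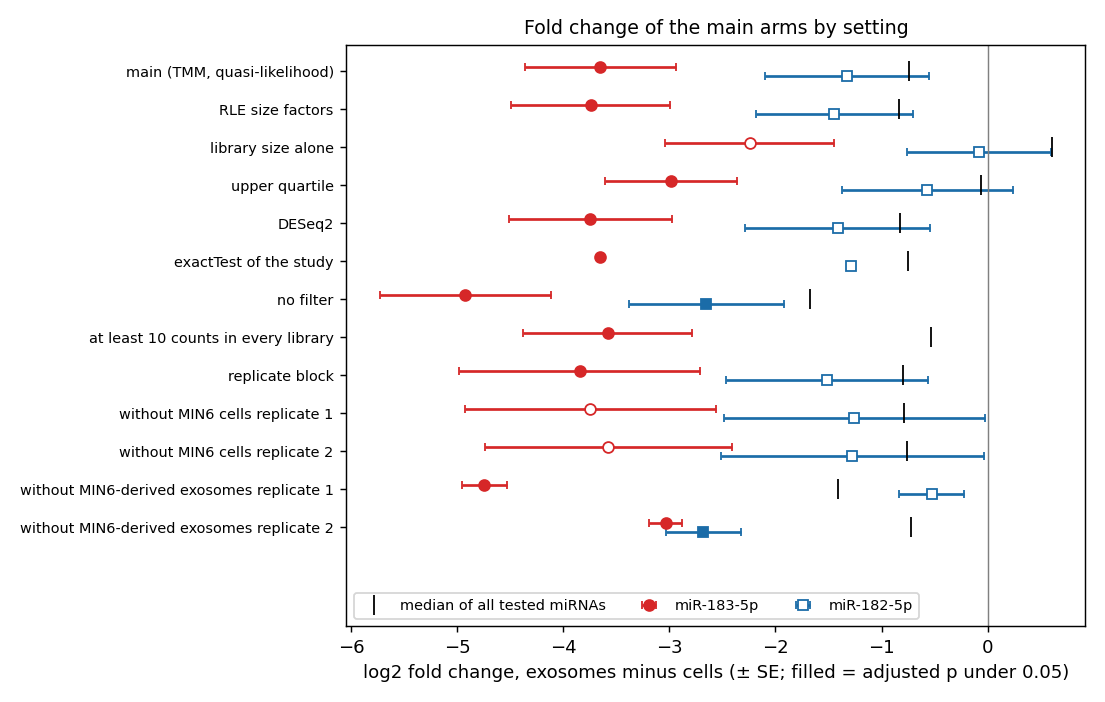
Log2 fold change (exosomes minus cells, ± SE) of miR-183-5p (circles) and miR-182-5p (squares) under each scaling, filter, test and left-out library, with the median of all tested miRNAs as a black tick. Filled symbols have an adjusted p below 0.05, and exactTest gives no SE. miR-183-5p lies between -4.92 and -2.24 throughout and below the median, while miR-182-5p runs from -2.68 to -0.08 and passes only with no filter or without exosome replicate 2.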

How the data were processed

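The authors deposited whole read counts per mature miRNA for each library, without normalization, and RPM values, which equal each count divided by the library's sum. They also deposited read counts per hairpin and the part on neither arm. The submitters' processing notes name mm10, cutadapt, Bowtie, Bowtie2, STAR, RSEM and edgeR, with no versions. Adapters were trimmed, rRNA reads discarded, and the rest aligned to the genome, miRBase and RNAcentral. Library preparation polyadenylated the RNA and added adapters by template switching. The reads split by arm in the hairpin tables, 8 columns, were left out, since some cells join several values.

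Groups were taken from the sample labels. Of 1915 miRNAs, 1101 had a count and 438 passed filterByExpr (minimum count 10). That minimum is scaled to library size, so fewer counts sufficed in the shallow exosome libraries. miR-199a-3p was tested with 2 and 2 counts in cells and 6 and 6 in exosomes, while miR-96-5p, with 19 and 24 in cells, was not. The background shares rest on this set. The exosome and cell groups were tested against each other with edgeR 4.0.16 in R 4.3.3 (quasi-likelihood, TMM), and p-values were adjusted over all 438 by the Benjamini-Hochberg method, with a threshold of 0.05. SE was computed as the absolute log2 fold change divided by the root of F. The study's exactTest and DESeq2 1.42.0 were alternatives, beside other scalings, filters and left-out libraries. Shares carry 95% Wilson intervals and the floor is 3 counts, or 35.4 and 69.9 normalized CPM in the exosome libraries. The fits were tested on simulated data. Exact permutation tests used scipy 1.17.1.

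All 6 members are named, with miRNAs that share a 5p seed, the 3 nearest to the most abundant member, and examples from the miR-200 and islet lists. miR-3475-5p (sharing a 3p seed) falls outside this rule and was chosen after its values were seen. Members and lists were chosen with earlier results of these data known. Sequences are from RefSeq GRCm38.p6.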

Additional observations from a re-analysis of the deposited data

How the results depend on the processing

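No member was higher in exosomes under any of the alternatives. miR-183-5p was lower in all of them, and missed the threshold with library size alone (-2.24) and without either cell library (adjusted p of 0.0764 and 0.0964 by edgeR). Leaving out each library in turn gave log2 fold changes of -4.74 to -3.03 for miR-183-5p and -2.68 to -0.53 for miR-182-5p, which also passed with no filter (-2.65). The members called lower numbered 1 in the main analysis, 0 with library size alone, 2 with exactTest and 3 with no filter. Of the 6 members, 3 were tested in the main analysis and all with no filter. With exactTest and with no filter the calls include miR-183-3p, which had no exosome count. Only miR-183-5p could be tested with at least 10 counts in every library, and it was lower. The tested miRNAs numbered 438 in the main analysis, 1101 with no filter and 100 with at least 10 counts in every library. All miRNAs called lower numbered 129, against 30 with library size alone, 202 with no filter, 40 with at least 10 counts in every library and 0 to 168 with a library left out. Those called higher numbered 104, against 137, 104, 37 and 0 to 124. With library size alone the calls therefore lay mostly on the higher side. The miR-200 family had 7 lower, against 3 with library size alone, 1 with at least 10 counts in every library and 0 to 8 with a library left out. Of the family, only miR-200c-3p had at least 10 counts in every library, so no other arm could be tested under that filter. The islet list had 6 lower, against 0 with library size alone and 0 to 7 with a library left out. The 0 calls came from edgeR without either cell library, where 76 and 69 miRNAs were lower at an unadjusted p under 0.05 and 83 and 74 higher, in fits that assume the lone cell library varies like the exosomes. Fits without an exosome library likewise take their spread from the cells. With the filter run again on the remaining 3 libraries, an alternative chosen after seeing the data, 70 and 56 were lower and 51 and 46 higher, the miR-200 family had 6 and 4 lower, and miR-183-5p was lower at -4.47 and -4.18. The same filter without exosome replicate 2 gave -2.62 for miR-182-5p. With the replicate block, miR-183-5p had a log2 fold change of -3.85 (adjusted p = 0.00246 by edgeR), miR-182-5p -1.51, and 109 miRNAs were lower and 117 higher. The labels give no shared origin for same-numbered libraries, whose deviations correlated at 0.194 over 438 miRNAs. The share of miR-96-3p in the cluster differed by -0.128 percentage points between exosomes and cells, and that of its hairpin by 0.184 points, which rests on the exosome read that lies on neither arm. At this depth, arms below 63.2 to 95.5 RPM could not be assessed in exosomes, and the cause of the other changes was not tested.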
